A study of Mus musculus with 16 samples.

Results

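The 10 genes Pgr, Runx1, Areg, Ereg, Btc, Ptgs2, Has2, Tnfaip6, Ptx3 and Adamts1 are induced in the ovulatory follicle by luteinizing hormone (LH). They were taken by symbol from a table of read counts for 38087 genes, and all 10 symbols were found once. They were read in whole ovaries and whole testes of germ-free mice and of mice raised with their microbes. No member passed the test between germ-free and conventional ovaries. Lower in testis than in ovary were 9 of 10 in each microbiota group, beside 43.8% (conventional) and 43.4% (germ-free) of all tested genes. Only 3 members had enough testis counts to be tested within the testis. The others entered the tissue comparison through their ovary counts and could hardly be called higher in testis. The share of all genes is therefore not a like comparator for them.

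At ovulation the LH surge acts on receptors of the mural granulosa and theca cells, and the granulosa cells switch on the progesterone receptor and release EGF-like growth factors. These ligands act on the EGF receptor of the cumulus cells around the oocyte, which make prostaglandins and a hyaluronan matrix cross-linked by secreted proteins. Secreted proteases then remodel the follicle wall and the matrix. In the rodent ovary these genes are known for brief peaks in the hours after the surge, so the stage of the ovarian cycle bears on their level.

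The mice were C57BL/6j, aged 15 to 16 weeks, fed ad libitum and sampled at zeitgeber time 2 to 4, per the series' own text and labels. CV ovaries (n = 4) and CV testes (n = 4) came from conventionally raised mice, and GF ovaries (n = 5) and GF testes (n = 3) from germ-free mice. No hormone treatment, cycle stage, mating status, litter or batch is named in the labels used here, and no transgene or deletion is named for any group. Nothing in the labels says that each library was a different animal. The p-values therefore reflect only how far these samples spread, which may be technical. Total counts ran from 12912251 to 15907297 in the 9 ovaries and from 25880591 to 28266867 in the 7 testes.

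The tissue labels were checked against fixed marker lists, given as summed CPM (read counts scaled to a common library size). Testis germ cell markers summed to 9.06 to 14.9 CPM in the ovaries and to 5492 to 5883 CPM in the testes, and granulosa markers to 2755 to 5008 CPM in the ovaries and 112 to 126 CPM in the testes. Oviduct markers were present as well. The oviduct glycoprotein gene Ovgp1 ran from 1729 to 3699 CPM across the 9 ovaries, and none of the 5 oviduct markers was at 0 in them. In whole organs, fewer cells of a type and less RNA per cell cannot be told apart.

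A group of 3 members lies together on chromosome 5 (GRCm38 positions, GENCODE M21). These are Ereg (ENSMUSG00000029377, 91074622 to 91093646, plus strand), Areg (ENSMUSG00000029378, 91139599 to 91148432, plus) and Btc (ENSMUSG00000082361, 91357261 to 91402994, minus). Chromosome 16 holds Adamts1 (ENSMUSG00000022893, 85793827 to 85803113, minus) and Runx1 (ENSMUSG00000022952, 92601466 to 92826149, minus). The other members are Pgr on chromosome 9 (ENSMUSG00000031870, 8899833 to 8968611, plus), Ptgs2 on chromosome 1 (ENSMUSG00000032487, 150100031 to 150108227, plus), Has2 on chromosome 15 (ENSMUSG00000022367, 56665627 to 56694539, minus), Tnfaip6 on chromosome 2 (ENSMUSG00000053475, 52038009 to 52056686, plus) and Ptx3 on chromosome 3 (ENSMUSG00000027832, 66219910 to 66225805, plus). All 10 are protein-coding, and the counts are over their exons. Antisense transcripts share 182 bp of exon with Has2, 141 bp with Ereg and 106 bp with Runx1. The partner of Has2, Has2os, had at most 7 counts in any library and that of Runx1, Gm26626, at most 6. Whether counting used strand is not given in the sources used here, so reads in these stretches cannot be assigned to one gene of the pair.

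The LH signal reaches these genes through cyclic AMP and through transcription factors that are themselves induced, so the 250 bases before the RefSeq start were read for the motifs of those factors. RefSeq (GRCm38.p6) gave 9 windows for 8 members, 2 of them for Runx1. Has2 and Ereg had no entry. Shown 5′ to 3′ on each gene's own strand are the window with a full cyclic AMP response element (Areg), the one with RUNX and C/EBP matches (Ptgs2), the one of the most abundant member (Adamts1) and the one of the most variable member (Pgr). Capitals mark the matches.
Areg, chr5:91139349-91139598, plus strand: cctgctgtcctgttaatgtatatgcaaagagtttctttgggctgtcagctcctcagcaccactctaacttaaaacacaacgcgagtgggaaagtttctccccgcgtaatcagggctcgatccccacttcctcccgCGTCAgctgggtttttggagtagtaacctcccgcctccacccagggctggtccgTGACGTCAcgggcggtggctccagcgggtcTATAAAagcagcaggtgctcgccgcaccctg
Ptgs2, chr1:150099781-150100030, plus strand: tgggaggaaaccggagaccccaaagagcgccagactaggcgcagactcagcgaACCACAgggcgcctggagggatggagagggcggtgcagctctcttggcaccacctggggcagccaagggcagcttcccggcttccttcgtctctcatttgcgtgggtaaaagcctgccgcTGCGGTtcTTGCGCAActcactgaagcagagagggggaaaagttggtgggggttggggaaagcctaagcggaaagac
Adamts1, chr16:85803114-85803363, minus strand: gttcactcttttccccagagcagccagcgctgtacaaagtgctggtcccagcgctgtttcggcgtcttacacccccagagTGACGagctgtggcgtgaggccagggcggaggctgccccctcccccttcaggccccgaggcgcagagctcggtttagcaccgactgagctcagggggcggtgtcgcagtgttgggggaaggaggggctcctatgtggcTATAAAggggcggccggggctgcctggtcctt
Pgr, chr9:8899583-8899832, plus strand: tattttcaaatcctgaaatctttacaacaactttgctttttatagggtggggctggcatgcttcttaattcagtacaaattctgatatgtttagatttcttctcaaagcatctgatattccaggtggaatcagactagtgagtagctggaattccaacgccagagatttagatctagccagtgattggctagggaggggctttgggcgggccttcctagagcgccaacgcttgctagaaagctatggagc

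The Areg window held TGACGTCA, the full cyclic AMP response element, beginning 61 bases before the start. Of 32851 RefSeq windows of this length, 1.55% held it on either strand. Its core TGACG, which lies inside the full element, was in 3 of the 9 member windows (Areg, Adamts1 and Btc) and in 17.8% of all. In Ptgs2, the RUNX letters TGTGGT (here as the complement ACCACA) began 197 bases before the start, TGCGGT 77 bases and the C/EBP letters TTGCNNAA 69 bases before it. All windows held these at 14%, 5.1% and 9.56%. Ptx3 also held TTGCNNAA, and the distal Runx1 window held the E-box CACGTG (6.02% of all windows). The AP-1 letters TGANTCA (6.75% of all) were in the Tnfaip6 window, 142 bases before the start. TATAAA, read on the gene's strand only and held by 7.59% of all windows, began 31 bases before the start in Areg and 32 bases before it in Adamts1. Every other motif was searched on both strands. None of these letters was in the Pgr window, and a match is a description of the sequence only.

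The members stood at very different levels in the ovary. Pgr, Runx1 and Adamts1 averaged at least 40 CPM in both ovary groups, and the other 7 averaged under 5 CPM in both. Levels here are CPM with TMM-scaled library sizes within the tissue, and for comparison between genes they are divided by exon length in kb.

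**Figure D1:**
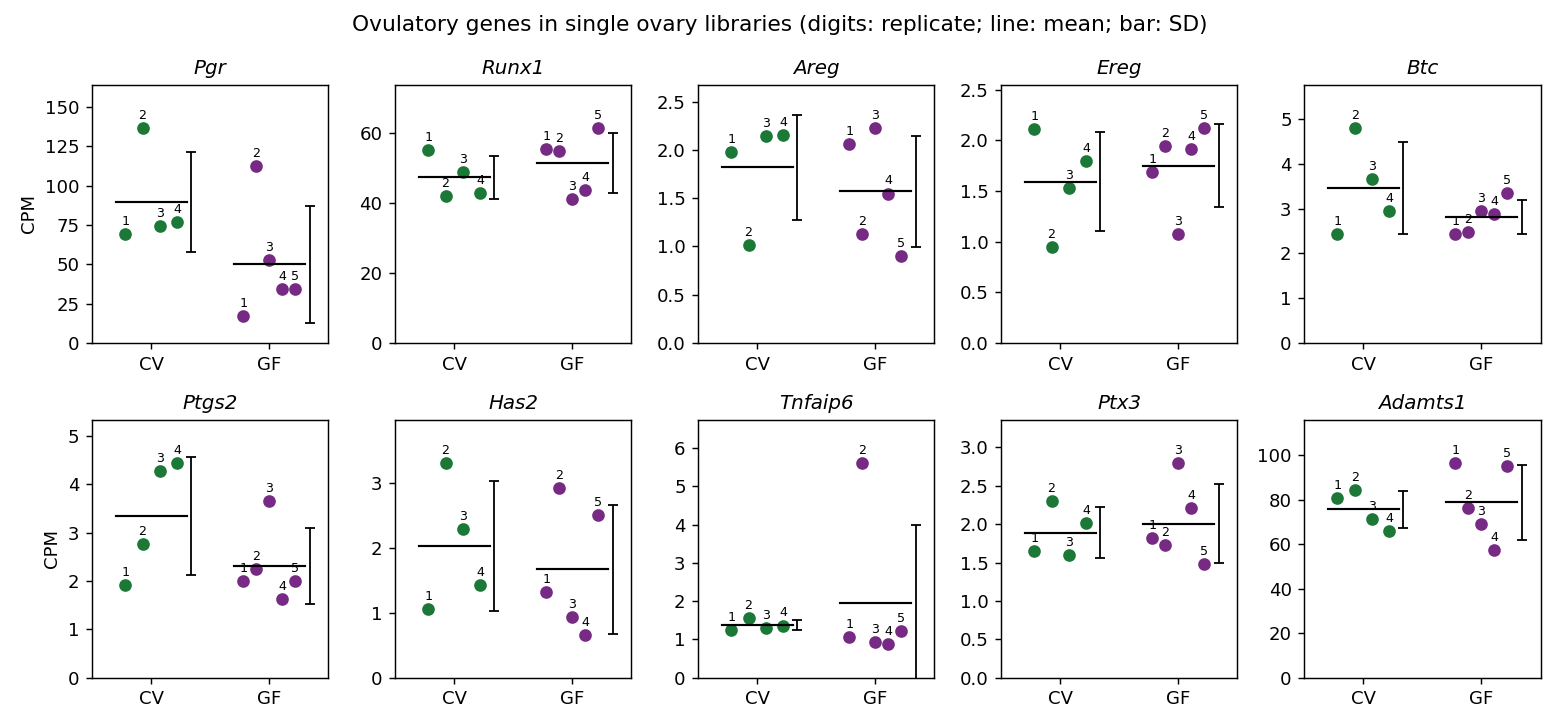
CPM (y axis, from 0) of each gene in the 4 CV and 5 GF ovaries, 1 point per library with its replicate number, the group mean as a line and the SD as a bar. The CV and GF points of every gene overlap, and the replicate 2 libraries are the highest for Pgr, Has2 and Tnfaip6.

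Pgr encodes the progesterone receptor, the ligand-activated transcription factor without which follicles do not rupture. It stood at 69.4, 137, 74.5 and 77.1 CPM in CV ovaries 1 to 4 and at 16.8, 113, 52.9, 34.04 and 34.05 CPM in GF ovaries 1 to 5. All 4 CV ovaries were above 4 of the 5 GF ovaries, and GF replicate 2 was above 3 of the 4 CV ovaries. The mean was 89.4 ± 31.7 CPM in CV (SD, n = 4) and 50.1 ± 37.2 CPM in GF (n = 5). The log2 fold change of GF over CV was -0.84 (SE 0.51, 95% interval -2.02 to 0.34), and it did not pass edgeR's quasi-likelihood test (Benjamini-Hochberg adjusted p = 0.826). With each library left out in turn it ran from -1.38 (without GF replicate 2, unadjusted p = 0.0073, adjusted p = 0.394, edgeR) to -0.56 (without CV replicate 2). That adjusted p was the smallest over all edgeR, DESeq2 and limma-voom runs, in which it reached up to 0.988. Pgr was lower in GF in all 4 pairs of same-numbered ovaries, and with the replicate number as a block the log2 fold change was -0.96 (unadjusted p = 0.069, adjusted p = 0.562, edgeR).

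Runx1, a DNA-binding factor of the core binding family, was much steadier. It ran from 42.1 to 55.2 CPM in the CV ovaries (55.2, 42.1, 49.0 and 42.9) and from 41.2 to 61.4 CPM in the GF ovaries (55.4, 54.9, 41.2, 43.5 and 61.4). The groups overlapped over most of their range, and the log2 fold change was 0.12 (SE 0.13, interval -0.17 to 0.41, edgeR adjusted p = 0.912).

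The EGF-like ligands, which carry the LH signal from granulosa to cumulus cells, were all low. Areg, amphiregulin, stood at 1.98, 1.01, 2.14 and 2.15 CPM in CV and at 2.06, 1.12, 2.23, 1.55 and 0.90 CPM in GF ovaries. The low values were CV replicate 2 and GF replicates 2 and 5, on 14 or 15 counts each. Ereg, epiregulin, stood at 2.11, 0.95, 1.53 and 1.79 CPM in CV and at 1.69, 1.95, 1.08, 1.92 and 2.12 CPM in GF ovaries. Here CV replicate 2 and GF replicate 3 were lowest and the groups overlapped. Btc, betacellulin, stood at 2.44, 4.802, 3.67 and 2.94 CPM in CV and at 2.44, 2.47, 2.94, 2.87 and 3.35 CPM in GF ovaries, with the 2 highest values in CV. The log2 fold changes were -0.21 for Areg (interval -0.92 to 0.51), 0.13 for Ereg (-0.47 to 0.74) and -0.30 for Btc (-0.77 to 0.18), with edgeR adjusted p of 0.94, 0.956 and 0.865.

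Ptgs2 encodes the inducible cyclooxygenase that makes the prostaglandins needed for cumulus expansion. Its values were 1.91, 2.77, 4.28 and 4.45 CPM in CV and 2.00, 2.25, 3.66, 1.62 and 2.00 CPM in GF ovaries. CV replicates 3 and 4 were above every GF ovary, and CV replicate 1 was below 4 of the 5. The mean was 3.35 ± 1.22 CPM in CV and 2.31 ± 0.79 CPM in GF (SD, n = 4 and 5), a log2 fold change of -0.54 (SE 0.30, interval -1.21 to 0.13, edgeR adjusted p = 0.81). Without CV replicate 4 it was -0.37.

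Of the matrix genes, Has2 varied widely between ovaries, though on few reads, Tnfaip6 did so through 1 library, and Ptx3 did not. Has2, the synthase that makes the hyaluronan chain, stood at 1.05, 3.31, 2.29 and 1.43 CPM in CV and at 1.31, 2.92, 0.93, 0.66 and 2.51 CPM in GF ovaries (9 to 49 counts). The highest library of each group was replicate 2, and the groups covered much the same range. Tnfaip6, the secreted protein that moves heavy chains of the inter-alpha-trypsin inhibitor onto hyaluronan, stood at 1.25, 1.56, 1.298 and 1.36 CPM in CV and at 1.06, 5.62, 0.93, 0.88 and 1.22 CPM in GF ovaries. Of the GF libraries 4 were below every CV library and replicate 2, with 75 counts, was far above them all. Ptx3, the pentraxin that cross-links those heavy chains, stood at 1.65, 2.30, 1.60 and 2.01 CPM in CV and at 1.81, 1.72, 2.80, 2.21 and 1.48 CPM in GF ovaries, with overlapping groups.

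In the comparison of GF with CV ovaries the log2 fold change was -0.27 for Has2 (interval -1.31 to 0.76), 0.49 for Tnfaip6 (-0.80 to 1.78) and 0.08 for Ptx3 (-0.43 to 0.59). EdgeR adjusted p was 0.945, 0.92 and 0.968. Single libraries set the direction: Tnfaip6 was at -0.41 without GF replicate 2 (adjusted p = 0.674) and Has2 at 0.08 without CV replicate 2 (adjusted p = 0.994). The direction of Ereg (-0.05 without CV replicate 2) and of Ptx3 (-0.07 without GF replicate 3) also rested on 1 library.

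Adamts1, the metalloprotease that cleaves versican in the matrix and is a known target of the progesterone receptor, was high in every ovary. It stood at 80.7, 84.3, 71.4 and 66.0 CPM in CV and at 96.6, 76.5, 68.9, 57.5 and 95.004 CPM in GF ovaries. The group with more spread was GF, which held both the lowest and the highest library. The log2 fold change was 0.06 (SE 0.15, interval -0.28 to 0.40, edgeR adjusted p = 0.963), and its sign turned without GF replicate 1 (-0.02) or 5 (-0.01).

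**Figure D2:**
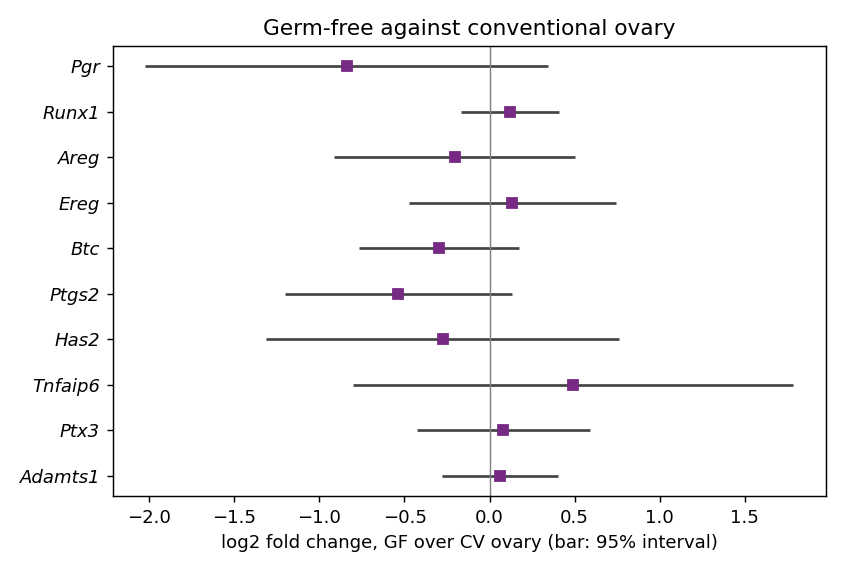
Log2 fold change of GF over CV ovaries for each gene (x axis, squares) with its 95% interval from the edgeR fit. All 10 intervals include 0, and those of Pgr, Tnfaip6 and Has2 are the widest.

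In the ovary fit 18095 genes were tested and 0.177% of them (32) passed at an adjusted p under 0.05. All 10 members were tested. None of the 10 passed, and none had an unadjusted p under 0.05, against 1172 of all genes tested. No member passed with DESeq2 or limma-voom either. Of the members, 5 had a positive and 5 a negative log2 fold change, with a median of -0.07 beside 0.01 for all genes tested. Group ranges did not overlap for 2.72% of tested genes and for 0 members. A missed test does not show that levels were alike: the interval for Pgr runs from -2.02 to 0.34, and for Runx1 from -0.17 to 0.41.

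Single ovaries differed widely for some members. Over the 9 ovaries the SD of log2 CPM was 0.95 for Pgr, 0.75 for Tnfaip6 and 0.74 for Has2, above 98.0%, 96.4% and 96.3% of the 18095 tested genes, whose median was 0.19. The highest ovary was 8.13-fold above the lowest for Pgr, 6.36-fold for Tnfaip6 and 4.998-fold for Has2. Counting alone would give an SD of about 0.05 for Pgr, 0.30 for Tnfaip6 and 0.28 for Has2, so the spread of all 3 is wider than counting error. For Tnfaip6 this rests on GF replicate 2 (5.62 CPM, 75 counts). Its other ovaries ran from 0.88 to 1.56 CPM on 12 to 23 counts. Ptgs2 had an SD of 0.52, Areg 0.48, Ereg 0.38 and Btc 0.31. Adamts1 (0.25), Runx1 (0.21) and Ptx3 (0.28) were the steadiest, and for Ptx3 counting alone gives 0.27. All 10 members were above the median of tested genes, in which low counts also widen the SD.

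The replicate 2 libraries stood out for several members. CV replicate 2 and GF replicate 2 were the 2 highest of the 9 ovaries for Pgr, Has2 and Tnfaip6 and among the 3 lowest for Areg. They were also the 2 highest for Epcam, an epithelial adhesion molecule fixed as an oviduct marker (120 and 83.2 CPM, against 51.6 to 77.6 in the other 7). The same held for Krt8, a keratin of simple epithelia fixed as a surface epithelium marker (185 and 137 CPM, against 83.03 to 115). What the shared number stands for is not stated in the labels.

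Pgr followed these epithelial markers closely across the ovaries. Its log2 CPM had r = 0.92 and rho = 0.98 with Epcam, and r = 0.88 and rho = 0.97 with Krt8, over 9 libraries. Among 570 relations of 10 members with 57 markers, these were the only 2 whose Spearman rho passed after adjustment (exact permutation p = 4.96e-05, adjusted 0.0283, and p = 0.000165, adjusted 0.0471, two-sided). No Pearson r passed (exact p = 0.00064 for Epcam and 0.0021 for Krt8, both adjusted to 0.249), and 50 of the 570 had an unadjusted p under 0.05. Without GF replicates 1 and 4, the 2 libraries farthest from the median log2 CPM of Pgr, r was 0.90 and 0.93. The replicate 2 libraries stayed in. With group means subtracted it was 0.87 and 0.82. The permutations treat the 9 libraries as exchangeable, although same-numbered CV and GF ovaries deviated together, so these p-values may be too small.

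Not every epithelial marker followed Pgr. In the oviduct list r was 0.82 for Cdh1 and 0.75 for Pax8, but -0.04 for Ovgp1 and -0.14 for Foxj1, the regulator of ciliated cells. In the surface epithelium list it was 0.84 for Krt19 and 0.70 for Krt18, but -0.13 for Msln and -0.16 for Lgals7. All 5 oviduct markers had a negative log2 fold change of GF over CV (median -0.37, 2 at an unadjusted p under 0.05 and none called, edgeR), the direction of Pgr. In the surface epithelium list, however, 4 of 7 were positive (median 0.10). Lists not tied to epithelium shared the direction of Pgr: 0 of 5 tested oocyte markers (median -0.29) and 2 of 10 granulosa markers (median -0.11) were positive. None of these was called. The median was -0.44 for the 7 corpus luteum markers and 0.34 for the 5 theca markers, none called. The summed oviduct list, most of it Ovgp1, ran from 2892 to 3608 CPM in CV and from 1953 to 3905 CPM in GF ovaries, and the surface epithelium list from 428 to 653 and from 363 to 518 CPM. Epcam itself averaged 87.3 ± 21.996 CPM in the CV ovaries and 63.3 ± 11.9 CPM in the GF ovaries (SD, n = 4 and 5), a log2 fold change of -0.46 that did not pass (edgeR adjusted p = 0.699). The part of epithelial RNA in the Pgr values was not tested.

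**Figure D3:**
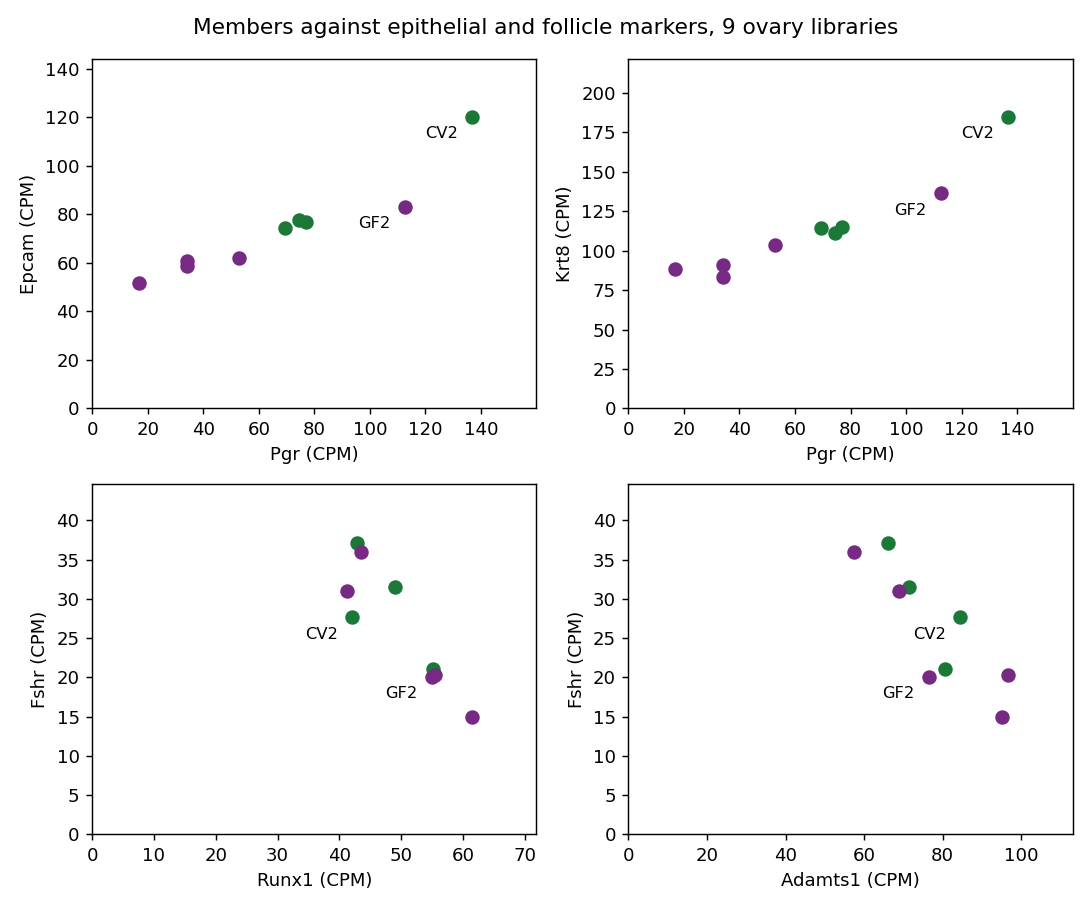
CPM of a member (x axis) against CPM of a marker (y axis) in the 9 ovaries, green for CV and purple for GF, with the replicate 2 libraries named (CV2, GF2). Pgr lies along a rising line with Epcam and with Krt8, topped by CV2 and GF2, and Runx1 and Adamts1 are lower where the FSH receptor gene Fshr is higher.

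Runx1 and Adamts1 ran the other way from a follicle marker. With Fshr, the follicle-stimulating hormone receptor of growing follicles, Runx1 had r = -0.90 (rho = -0.70, exact permutation p of r = 0.0025) and Adamts1 r = -0.85 (rho = -0.82, p = 0.0047). Both had an adjusted p of 0.249 over the 570 relations, so neither passed. Without the 2 ovaries farthest from the median of the member, r was -0.87 and -0.86. Fshr itself was at a mean of 29.3 ± 6.78 CPM in CV ovaries and at 24.5 ± 8.69 CPM in GF ovaries.

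The members did not rise and fall as a block. Of 45 member pairs over the 9 ovaries, r was positive for 22 and negative for 23, with a median of -0.03. An unadjusted exact permutation p under 0.05 was reached by 5 pairs and an adjusted one by none. By Pearson r the pair furthest from 0 was Ptx3 and Runx1, with r = -0.87 and rho = -0.83 (exact p = 0.0028, adjusted 0.128), and r = -0.82 without the 2 farthest libraries. With group means subtracted r was -0.94 (adjusted permutation p = 0.0155), the only pair to pass there. That p is approximate, since the centred values were permuted across both groups. The SD of Ptx3 over the ovaries (0.28) was also close to that of counting alone (0.27), so a relation of Ptx3 cannot be read from this pair. By rho the pair furthest from 0 was Pgr and Tnfaip6, with rho = 0.90 (exact permutation p = 0.0020, adjusted 0.0913) and r = 0.57. Has2 and Tnfaip6, which build the same matrix, had r = 0.62 and rho = 0.83 (exact p = 0.036, adjusted 0.395). With 4 CV and 5 GF ovaries, no relation was read within a group.

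**Figure D4:**
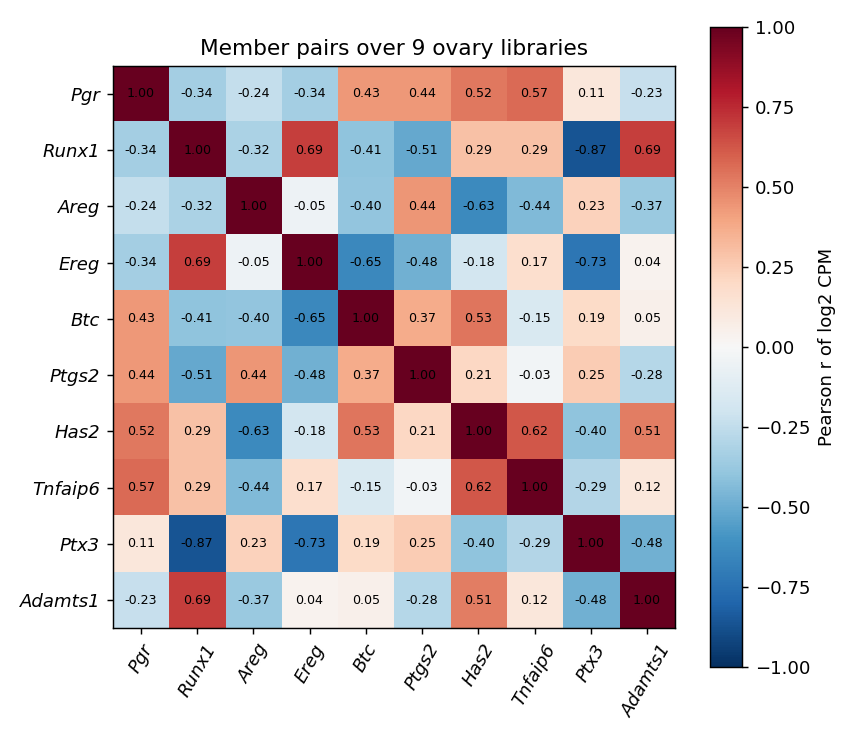
Pearson r of log2 CPM for each pair of members over the 9 ovaries, as colour and number (red positive, blue negative). Positive and negative pairs are about equally common, and the darkest blue cell off the diagonal is Ptx3 with Runx1 at -0.87.

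The genes most like each member over the 9 ovaries, among 11881 genes whose mean reached 5 CPM, are given as a description with Pearson r. They were Flnc (0.98), Cyb5r3 and Fzd6 (both 0.97) for Pgr and Fam38b (0.99), H2afz (0.98) and Vgll4 (0.96) for Tnfaip6. For Has2 they were Prr13 (0.94), Prosc (0.93) and Dusp6 (0.93), the last a phosphatase of the ERK kinases that EGF receptors activate. For Runx1 they were Dcp1b (0.97), Itga3 (0.95) and Bloc1s3 (0.92), and for Adamts1 Ncoa7 (0.94), D11Wsu99e (0.93) and Cyp2f2 (0.92). The closest to Areg were Ttc16 (0.95), Dnaic1 (0.95) and Krit1 (0.93), and to Btc they were Sri (0.95), Adam9 (0.93) and Fam190a (0.91). The rest were C2cd2l (0.96), Fam18b (0.91) and Zfp330 (0.91) for Ptgs2, Mre11a (0.93), Ap4m1 (0.92) and Harbi1 (0.91) for Ereg, and Tceb3 (0.94), Cyc1 (0.94) and Hagh (0.94) for Ptx3. Each r is the highest of many over only 9 points, and these libraries share their depth and tissue.

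Per kb of exon the order of the members in the CV ovary began with Adamts1 (14.3 ± 1.58 CPM per kb), Pgr (10.5 ± 3.71), Runx1 (3.93 ± 0.51) and Areg (1.499 ± 0.45) (SD, n = 4). Tnfaip6 (0.80), Btc (0.77), Ptgs2 (0.73), Ptx3 (0.70), Has2 (0.48) and Ereg (0.39 CPM per kb) followed. Runx1 stood apart from Pgr above it and from Areg below it in every CV ovary. Adamts1 and Pgr overlapped, and each neighbour from Areg down to Ereg overlapped the next. In the GF ovary the first 5 kept this order, with Adamts1 at 14.9 ± 3.18, Pgr at 5.86 ± 4.35 and Runx1 at 4.27 ± 0.71 CPM per kb (n = 5), where Pgr overlapped both of its neighbours.

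**Figure D5:**
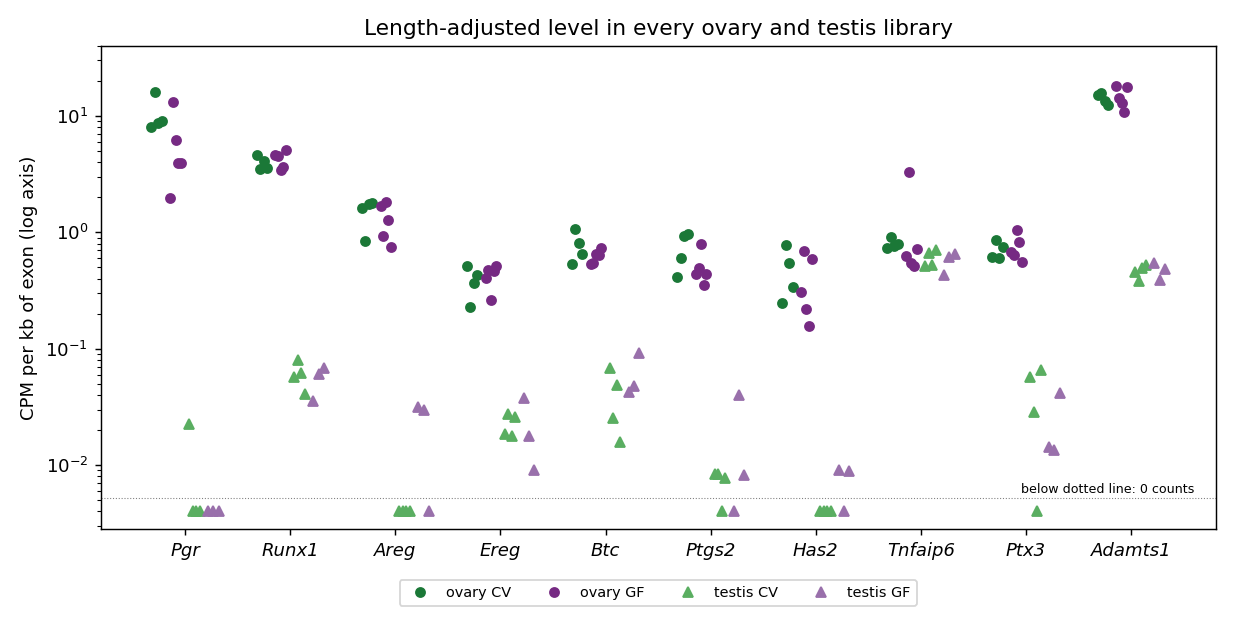
CPM per kb of exon (log axis) of each gene in every ovary (circles) and testis (triangles), green for CV and purple for GF, with libraries at 0 counts drawn below the dotted line. In 9 genes the ovaries lie above the testes. For Tnfaip6 the GF ovaries and GF testes overlap. Its CV ovaries (0.73 to 0.91) lie above its CV testes (0.52 to 0.70), on levels scaled within each tissue.

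In the testis the order was another one. Tnfaip6 was first at 0.60 ± 0.10 CPM per kb in CV (SD, n = 4) and 0.57 ± 0.12 in GF (n = 3), and Adamts1 came next at 0.46 ± 0.06 and 0.47 ± 0.08, with overlapping ranges in each group. Every other member averaged under 0.1 CPM per kb there. Pgr had 5 counts in CV testis 1 and 0 in the other 6 testes. Areg and Has2 had 0 counts in all 4 CV testes and 2 counts each over the 3 GF testes. A count of 0 over a group allows up to 0.0369 CPM in the CV and 0.0529 CPM in the GF testes (3 counts over the group, counting error only), on the scale of the tissue fits.

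Between tissues nearly every gene differed, so a call says little by itself. In CV mice 91.2% of 21231 tested genes passed, 43.8% lower and 47.4% higher in testis, and in GF mice 89.2% of 21221, 43.4% lower and 45.7% higher. Of the 10 members 9 were lower in testis in each microbiota group, and none was called higher. Only Adamts1, Tnfaip6 and Runx1 passed the filter on low counts in the testis alone. The other members entered these fits through their ovary counts, so a call of higher in testis was hardly open to them. The member medians that follow include them. The median log2 fold change of testis over ovary was -4.68 for the members beside 0.11 for all tested genes in CV, and -4.15 beside 0.04 in GF. Tissue and sex are 1 factor here, and the CV and GF comparisons share no library.

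Of the transcription factors, Pgr was close to absent from testis and Runx1 was low there. Runx1 was lower in testis by a log2 fold change of -5.23 in CV (SE 0.16, adjusted p = 1.77e-12) and -5.48 in GF (SE 0.23, adjusted p = 2.47e-09), with 14 to 25 and 11 to 22 counts per testis. For Pgr the ovary to testis ratio was 1104 in CV (5124 against 5 counts, interval 473 to 3402), and in GF, with 3498 counts against none, the ovary was at least 745-fold higher against a floor of 3 counts (exact 95% lower limit 606). Without CV testis replicate 1, all the CV testes are at 0. Ratios and their 95% intervals come from summed counts and cover counting error only.

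The protease and the enzyme followed. Adamts1 was at 2.46 ± 0.32 CPM in the CV and 2.51 ± 0.41 CPM in the GF testis (SD, n = 4 and 3). Its log2 fold change of testis over ovary was -4.13 in CV (SE 0.11, edgeR adjusted p = 5.02e-13) and -4.18 in GF (SE 0.22, adjusted p = 2.8e-08). Ptgs2 had 3 counts over the 4 CV testes, a ratio of 67.5 (interval 22.8 to 330) of ovary over testis, and 6 over the 3 GF testes, 5 of them in replicate 2, a ratio of 17.7 (interval 7.95 to 48.9). Without GF testis replicate 2 the log2 fold change was -5.79, against -4.07 with it.

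The ligands, Has2 and Ptx3 had few or no counts in testis. Against the same floor of 3 counts, Areg was at least 37.0-fold higher in CV ovary than CV testis (exact 95% lower limit 29.5) and Has2 at least 41.3-fold (33.1). With 2 counts in the GF testes the ratios were 36.4 (interval 9.85 to 304) and 38.7 (10.5 to 323). Ereg had 1 to 4 and Btc 2 to 11 counts per testis. Ereg differed by -3.23 in CV and -3.46 in GF, and Btc by -3.44 and -2.55. Ptx3, with 0 to 5 counts per testis, differed by -3.34 and -4.11 (log2, testis over ovary). All 3 genes were called lower by edgeR in both. They entered these fits through their ovary counts, so a call of higher in testis was hardly open to them.

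Tnfaip6 was the member without a called difference between tissues. It had 23, 30, 24 and 34 counts in CV and 19, 29 and 30 counts in GF testes. The log2 fold change of testis over ovary was 0.40 in CV (SE 0.22, edgeR adjusted p = 0.10) and -0.19 in GF (SE 0.64, adjusted p = 0.782). In CV it depended on the scaling between tissues: with RLE scaling it was 0.52 (adjusted p = 0.0385), with upper quartile scaling -0.13 and with library totals only -0.40. In GF it was 0.70 without the high GF ovary 2 (adjusted p = 0.0281). TMM scaling raised the testis relative to library totals by 0.81 (CV) and 0.79 (GF) on the log2 scale, and the other 9 members stayed lower in testis under every scaling run.

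In the testis itself the microbiota comparison could be read for 3 members only, since 7 had too few counts to pass edgeR's filter. There 8.08% of 20269 tested genes passed, and none of Adamts1 (log2 fold change 0.02, SE 0.17), Tnfaip6 (-0.08, SE 0.25) and Runx1 (-0.12, SE 0.31) did (edgeR adjusted p from 0.891 to 0.965). The 3 had no unadjusted p under 0.05 in edgeR, and limma-voom called none. DESeq2 called neither Adamts1 nor Tnfaip6 and gave Runx1 no adjusted p. In the test of a difference between tissues in the response to microbiota, 0.132% of 21977 genes passed. It can be read only for the same 3 members, none of which passed with edgeR, DESeq2 or limma-voom or had an unadjusted p under 0.05 in edgeR. The other 7 entered that fit through their ovary counts alone, so that their result says nothing about the testis.

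Between GF and CV ovaries no gene passed in any of 7 lists of genes that act beside the members. An unadjusted p under 0.05, held by 1172 of all 18095 genes tested, was reached by 1 of 13 tested genes of the EGF receptor pathway, 2 of 14 of the prostaglandin pathway, 0 of 13 of the cumulus matrix, 2 of 16 of the proteases and their inhibitors and 3 of 16 of the ovulatory transcription factors. It was reached by 2 of 12 genes of gonadotropin signalling and 1 of 11 of the progesterone receptor targets and other LH-induced genes. List medians ran from -0.08 for prostaglandins to 0.13 for the progesterone receptor targets, beside 0.01 for all genes.

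The receptors of the cascade were abundant in the ovary. Lhcgr, the LH receptor, was at a mean of 330 ± 77.1 CPM in CV ovaries and at 244 ± 156 CPM in GF ovaries (SD, n = 4 and 5), and its GF libraries ran from 49.5 to 428 CPM. Its log2 fold change was -0.44 (edgeR adjusted p = 0.926). Egfr, the receptor of the EGF-like ligands, averaged 170 ± 1.53 and 173 ± 23.2 CPM. Ptges, the prostaglandin E synthase that acts after Ptgs2, averaged 80.2 and 90.0 CPM, and Ptger2, the prostaglandin receptor of cumulus cells, 15.2 and 14.2 CPM. Vcan, the versican that Adamts1 cleaves, averaged 349 and 357 CPM, and Nr5a2, a nuclear receptor of granulosa cells, 331 and 338 CPM. None of these passed in the ovary.

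In the testis, where 8.08% of all tested genes passed between GF and CV, 6 genes of these lists did. They were 1 of 14 tested genes of the EGF receptor pathway and, in the cumulus matrix, 1 higher and 1 lower of 11. The proteases and inhibitors held 1 of 15, the transcription factors 1 of 16 and gonadotropin signalling 1 of 11. None passed of 11 prostaglandin pathway genes and of 10 in the progesterone receptor target list. Erbb4, an EGF receptor family member, rose by 0.67 and Hmmr, a hyaluronan receptor, and Pde10a, a phosphodiesterase, by 0.18 each on the log2 scale. Hyal1, a hyaluronidase, fell by 0.31, the corepressor Nrip1 fell by 0.24 and the protease inhibitor Timp2 fell by 0.08 (edgeR adjusted p from 0.000591 to 0.0431).

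Between CV testis and CV ovary the related lists were mostly lower in testis as well. Called lower and higher were 11 and 2 of 13 tested genes in the EGF receptor pathway, 13 and 1 of 14 for prostaglandins, 9 and 4 of 14 for the cumulus matrix and 14 and 1 of 16 for proteases. They were 15 and 1 of 16 for the transcription factors, 10 and 2 of 12 for gonadotropin signalling and 9 and 2 of 12 for the progesterone receptor targets. Of all 21231 genes tested in CV, 43.8% were called lower and 47.4% higher, and in GF 43.4% and 45.7% of 21221. Fewer genes of some lists could be tested within the testis: 11 for prostaglandins, 11 for the cumulus matrix, 15 for proteases, 11 for gonadotropin signalling and 10 for the progesterone receptor targets. The rest entered through their ovary counts, so a call of higher in testis was hardly open to them. Medians over the 7 lists ran from -3.42 (prostaglandins) to -1.06 (cumulus matrix) in CV, beside 0.11 for all tested genes. In GF mice the called counts lower and higher were the same in 5 lists, and were 8 and 2 for the cumulus matrix and 14 and 1 for the transcription factors. Lhcgr (-5.22), Fshr (-2.96), Ptger2 (-5.91) and Nr5a2 (-8.23) were all called lower in CV testis.

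By smallest p, the EGF receptor pathway was led by Egfr (-3.83), the sheddase Adam10 (-2.01) and Erbb2 (-3.09), and the prostaglandin pathway by Ptges (-4.44), Ptges3 (1.55, higher in testis) and the phospholipase Pla2g4a (-3.43), all as log2 fold changes of CV testis over CV ovary. In the cumulus matrix list Cd44, a hyaluronan receptor (-6.20), Vcan (-6.07) and Sdc4 (-1.19) led. Among the proteases they were Plau (-5.20), Mmp2 (-4.80) and Mmp14 (-2.55), and among the transcription factors Fosl2 (-5.76), Hif1a (-2.71) and Nr5a1 (-2.15). The gonadotropin list was led by Gnas (-1.74), Adcy9 (-2.55) and Pde10a (2.29, higher), and the progesterone receptor target list by Vegfa (-4.07), Ctla2a (-4.29) and Sult1e1 (6.18, higher). Genes among the leading 3 in GF mice only were Hyal2 (-2.22), Itih5 (-5.10), Serpine2 (-6.81), Cebpb (-4.10), Npr2 (-5.18), Il6st (-3.08) and Cyp11a1 (-4.38), by the GF comparison.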

How the data were processed

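Per the labels' protocols, 250 ng of RNA per sample was depleted of ribosomal RNA, turned into stranded libraries with 12 PCR cycles and read as pairs of 100 bases. The authors deposited raw read counts per gene over exons, with no normalization, for 16 libraries. The submitters' processing notes name STAR 2.4.0i and mm10. Not given in the sources used here are the counter, its annotation and its strand setting. The 16 columns matched the samples by name.

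Counts were tested with edgeR 4.0.16 (R 4.3.3) by the quasi-likelihood F test with TMM scaling and the filterByExpr filter, and p-values were adjusted by Benjamini-Hochberg over all genes tested. A gene is called at an adjusted p under 0.05. Each of GF against CV in ovary and in testis, and testis against ovary in CV and in GF, had its own fit, and the interaction was fitted over all 16 libraries. The code was tested on simulated data. CPM levels were scaled within a tissue, so the ratio of 2 levels is not the fold between tissues, which comes from the joint fit. Correlations used log2 CPM (prior count 2) and exact permutation tests. DESeq2 1.42.0, limma-voom (limma 3.58.1), other scalings, no filter, a replicate block and leaving out each library were tried as alternatives, and library totals only was added after seeing the data. EdgeR's biological coefficient of variation came to 18.5% for the ovary fit and 4.17% for the testis fit.

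The members, the 7 related lists (102 genes) and the 12 marker lists (66 genes, of which Adgre1 was not found under that symbol) were chosen with earlier results of these data known. Named were all members, of each related list up to 3 called genes of smallest p per comparison, and always Lhcgr, Fshr, Egfr, Ptges, Ptger2, Vcan and Nr5a2. For likeness the 3 genes of highest r were named per member, passing over predicted and unnamed genes. Epcam, Krt8 and the other epithelial markers were named after their values were seen. The symbol Pde4d has 2 rows, of which the first was used.

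Libraries of the same number in CV and GF ovaries deviated together (r from 0.156 to 0.381 over 4 pairs), so the numbers may pair the ovaries. Libraries of the same number in the testis did not (r from -0.030 to -0.004). The main tests left this pairing out. A block on the number was run as an alternative on the partnered libraries, and it called 91 genes in the ovary in place of 32. No pair of replicates agreed within sampling noise (chi-square per degree of freedom from 2.37 to 34.3 over 25 pairs).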

Additional observations from a re-analysis of the deposited data

Results flagged for a closer look

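Of 28 gene and group combinations of 4 or 5 libraries, 5 had 1 library far from the rest by Dixon's gap test at 95%, where chance alone flags about 1 in 20. In the ovary, Pgr stood at 137 CPM in CV replicate 2, with the next CV library at 77.1 CPM. Areg stood at 1.01 CPM in the same library, with the next at 1.98 CPM. Tnfaip6 stood at 5.62 CPM in GF replicate 2, with the next GF library at 1.22 CPM. In the CV testis, Pgr was at 0.192 CPM in replicate 1 (5 counts) and at 0 in the others. Ptgs2 was at 0 in CV testis replicate 3 and had 1 count in each of the others, a gap that a single count makes.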

How the results depend on the processing

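No member was called between GF and CV in the ovary, in the testis or in the interaction under any alternative run. In the testis and the interaction that can be read for Adamts1, Tnfaip6 and Runx1 only. Between tissues 9 or 10 members were called under each run, where the main fits called 91.2% (CV) and 89.2% (GF) of all tested genes. DESeq2 gave no adjusted p for Runx1 in the testis or for Ptgs2, Has2, Areg, Ereg and Ptx3 in the interaction. The number of genes called in the ovary (32) rose to 95 with DESeq2, 91 with the replicate block and 93 with all 16 libraries in 1 fit, and ran from 25 to 33 without single libraries. In the testis (1638) it fell to 122 in the fit of all 16 libraries, and ran from 996 (without GF replicate 2) to 2084 without single libraries. In the interaction (29) it was 127 with DESeq2 and 16 for the partnered libraries without the block, and ran from 13 to 37 without single libraries. With group means subtracted, 1 member pair passed in place of 0. It was Ptx3 and Runx1, where Ptx3 varied little beyond counting error.

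The block turned the sign of Adamts1 in the ovary (-0.029, and -0.012 for the partnered libraries without it) and in the interaction (0.097 and 0.080), and changed the call of no member. Signs also turned for Pgr in the interaction with limma-voom (0.23), and for Tnfaip6 between tissues with upper quartile scaling (-0.13 in CV), library totals only (-0.40 in CV) and limma-voom (0.22 in GF). Without single libraries the log2 fold changes in the ovary ran from -0.020 to 0.16 for Adamts1, -0.56 to 0.076 for Has2, -0.41 to 0.67 for Tnfaip6, -0.051 to 0.30 for Ereg and -0.068 to 0.19 for Ptx3. In the testis they ran from -0.10 to 0.14 for Adamts1, -0.20 to 0.073 for Tnfaip6 and -0.31 to 0.11 for Runx1. In the interaction they ran from -2.97 to 0.84 for Pgr, -0.18 to 0.067 for Adamts1, -0.77 to 0.30 for Tnfaip6 and -0.86 to 0.11 for Ereg. Pgr and Ereg had too few testis counts for their interaction values and signs to be read. Between GF testis and ovary Tnfaip6 ran from -0.37 to 0.70. The cause of these changes was not tested. The 7 low members had 9 to 75 counts per ovary, so counting error limits what could be seen in them.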
